A study of Homo sapiens with 6 samples.

Results

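RAB proteins are the largest family of small GTPases that direct membrane traffic. They were described here through the transcripts of UM-UC-3 (UMUC3 in the labels), an established human bladder cancer cell line. Members were the gene names of the count table made of RAB, a number and at most a letter and a further digit, with the row of the highest mean count kept for each name. This gave 60 genes of 23382 in the table. The study sequenced 6 RNA libraries of this line, 3 labelled negative control and 3 labelled si-CPSF3, which names a small interfering RNA against CPSF3, the endonuclease of the mRNA 3' end cleavage machinery. The labels name no genetic alteration, dose or time for either group, and both groups are the same line, so the values describe 1 tumour line. Separate cultures are not stated for the numbered libraries, and every p-value therefore reflects variation among libraries that may be technical. In bulk RNA of this kind, fewer cells with a transcript and less of it in each cell cannot be told apart.

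A RAB protein is a switch that is active when it holds GTP and inactive when it holds GDP. Exchange factors load GTP, GTPase-activating proteins speed its hydrolysis, and GDP dissociation inhibitors (GDI) take the inactive protein off the membrane. In the GTP state a RAB recruits effectors such as tethers, motors and sorting proteins, and each RAB marks a certain compartment: RAB1 the path from the endoplasmic reticulum to the Golgi, RAB3 and RAB27 secretory vesicles, RAB5 early endosomes, RAB11 recycling endosomes and RAB7 late endosomes and lysosomes. The proteins reach membranes through lipids of the geranylgeranyl type, which are joined to cysteines at the carboxyl end.

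The ends of the coding sequences show this shared feature, which the choice of members did not use. In GENCODE 29 (GRCh38), 58 of the 60 genes had a cysteine codon (TGC or TGT) among their last 5 codons and 47 had at least 2. The sequence ended in cysteine, any codon, cysteine in 20 genes and in adjacent cysteine codons in 14. RAB6C and RAB6D, relatives of RAB6A with the longer frame of 254 codons, had none in this stretch. The coding sequences were 194 to 1021 codons long, with a median of 216. The last 30 coding bases, stop codon included, are shown for the genes on which the results turn and for the RAB6 contrast, read on the coding strand, with the cysteine codons among the last 5 in capitals.
RAB39B: gtcaaatcagagaggagaTGTttgTGCtag
RAB4A: gccccgaacgctcaggagTGTggtTGTtag
RAB4B: gccgtggcccctcagccgTGTggcTGCtga
RAB1A: gtcaagcagtcaggtggaggtTGCTGCtaa
RAB22A: ccttcagagccaaagcggagcTGCTGCtga
RAB11A: ccaaaggtgcagTGCTGTcagaacatctaa
RAB13: aagaacaccaacaagTGCtccctgggctga
RAB6A: ccagtcagtgaaggaggcTGTtccTGCtaa
RAB6D: tcatcattgctgcctgtctcgtggagatga
RAB39B, RAB4A and RAB4B shared the ending of cysteine, any codon, cysteine, and RAB1A and RAB22A the adjacent pair. RAB11A had its pair followed by 3 other codons, RAB13 had a single cysteine codon 4 from the end, and RAB6D had none.

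Each library held 4145385 to 4378899 counts in the rows kept. CPSF3 itself went against the label: its level (CPM, counts scaled to the library size after a correction for composition) was 4.52 to 10.4 in the controls and 8.88 to 15 in the others, the groups overlapped, and the log2 fold change of 0.67 (SE 0.32) missed the threshold (edgeR adjusted p = 0.329). With 1 library left out it ranged from 0.38, without control replicate 1, to 0.91, without control replicate 2. The groups are therefore named by their labels, and "higher" and "lower" refer to the libraries labelled si-CPSF3. Of 12 urothelial markers listed, 7 were in the table and 6 had counts, with UPK2 at 0 and summed levels of 129 to 168 CPM in the control libraries and 86.2 to 103 CPM in the others, most of it CD44. Among 6 epithelial markers EPCAM, CDH1 and KRT19 were at 0, while KRT8 and KRT18 carried nearly all of the summed 201 to 266 CPM in the controls and 204 to 240 CPM in the others. All 5 mesenchymal markers had counts, FN1 with 4 in all, and summed to 284 to 333 and 232 to 272 CPM, led by VIM. Of 5 leukocyte markers, CD68 and LYZ were in the table (38.6 to 42.9 and 27.7 to 34.1 CPM summed), and the erythroid and endothelial markers in the table did not exceed 0.467 CPM in any library; their part in the results was not tested. Ribosomal protein genes took 47.1% to 52.7% of the counts of a library. They were matched by the start of the name (RPL, RPS or RPLP and a digit, or RPSA). This also takes in pseudogenes and other genes whose names start so, and the later values use the same set.

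Of the 60 RAB genes, 39 had enough counts to be tested, and 1 of them, RAB39B, passed the threshold as higher. That is 2.56% of the tested members, beside 2.23% of all 11069 genes tested (0.723% higher and 1.51% lower), so the share was near the background. None passed as lower with edgeR, DESeq2 or limma-voom, and 0 were lower at an unadjusted p under 0.05. The latter 2 tools called RAB39B and no other member. At an unadjusted p under 0.05 there were 5 members, all higher (12.8%, beside 15.4% of all genes tested, 7.05% higher and 8.33% lower). The 3 libraries of one group lay entirely above or below those of the other for 9 members, 8 higher and 1 lower (23.1%, beside 21.2% of all genes, 9.82% higher and 11.4% lower). The median log2 fold change of the 39 was 0.15 and 27 lay above 0 (69.2%), while the median of all genes tested was -0.01 with 49.2% above 0. Scaled by library totals, the medians were 0.05 for the RAB genes and -0.10 for all genes.

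**Figure D1:**
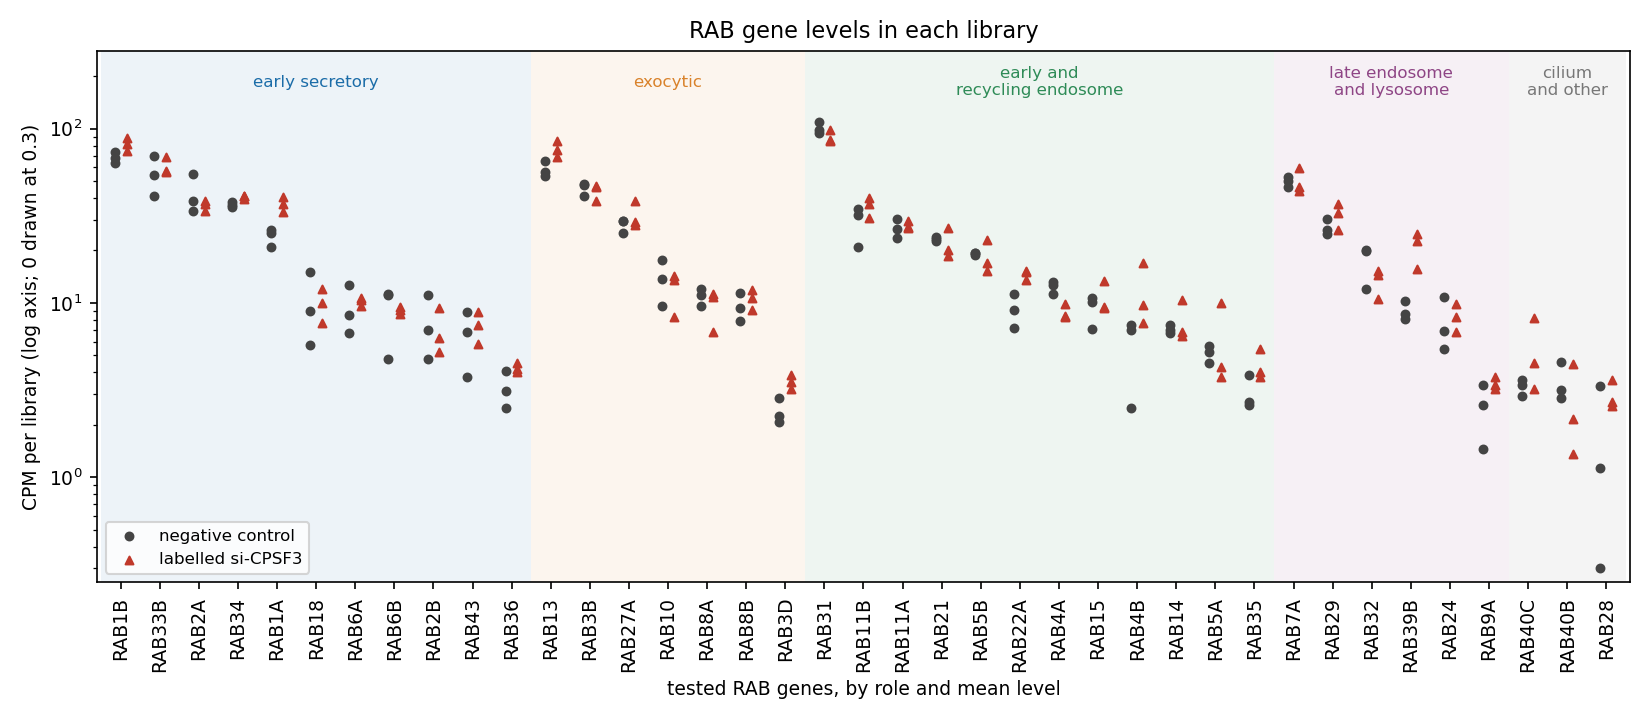
Level of each of the 39 tested RAB genes (CPM, log axis) in the 3 control libraries (circles) and the 3 libraries labelled si-CPSF3 (triangles), ordered by role and mean level. RAB31 was the highest by reads and RAB28 the lowest. RAB39B stands out among the genes that the role lists place with the late endosome and lysosome, by the gap between its groups.

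RAB39B, located on chromosome X at chrX:155258235-155264491 (minus strand, RefSeq, GRCh38.p14), encodes a RAB that is best known in neurons, where mutations cause X-linked intellectual disability with early parkinsonism. It had 36, 49 and 33 counts in the controls, in the order of replicates 1, 2 and 3, against 92, 97 and 69. The levels were 8.13, 10.2 and 8.59 CPM against 24.7, 22.7 and 15.6 CPM. Every library labelled si-CPSF3 lay above every control library, the third being the nearest to them. RAB39B rose 2.32-fold (log2 fold change 1.22, SE 0.24, 95% interval 0.71 to 1.73; edgeR adjusted p = 0.0136). With 1 library left out, the call was kept in 3 of 6 fits and lost without control replicate 1 (adjusted p = 0.0695), without replicate 1 (0.0685) and without replicate 2 (0.0617) of the libraries labelled si-CPSF3, while the log2 fold change stayed between 1.11 and 1.40. On the deposited FPKM values (fragments scaled by the authors to transcript length and library size) the groups again did not overlap, at 2.19 to 3.69 and 4.74 to 7.92. The test on that scale, which is not the same counts over 1 fixed length, did not pass (limma adjusted p = 0.418 on log2(FPKM + 1)). No exon of another annotated gene overlapped RAB39B in GENCODE 29. Its closest relative by name, RAB39A, had 1 count in the 6 libraries.

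**Figure D2:**
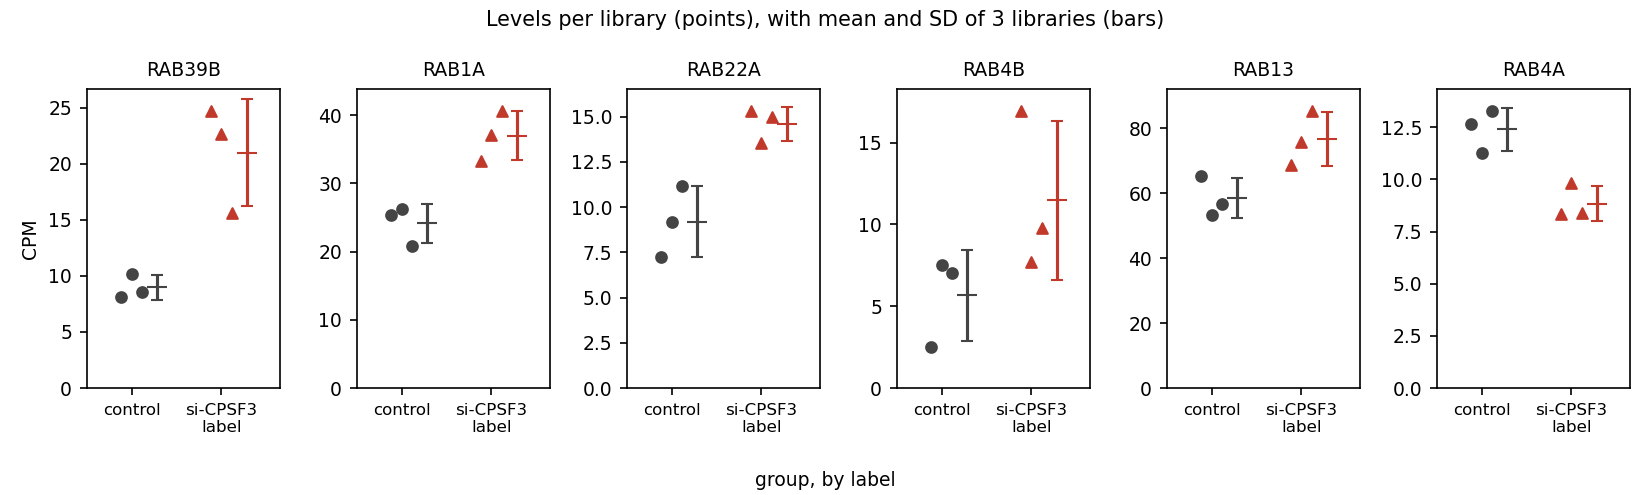
Level per library (CPM, linear axes from 0) of the 5 RAB genes with an unadjusted p under 0.05 and of RAB4A, with the mean and SD of 3 libraries beside the points. RAB39B, RAB1A, RAB22A, RAB4B and RAB13 lay higher in the libraries labelled si-CPSF3 and RAB4A lower, with no overlap of the groups in these 6 genes; adjusted for all genes tested, RAB39B passed and the other 5 did not.

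The early secretory RAB genes act between the endoplasmic reticulum and the Golgi and within the Golgi. Of 16 such genes 11 were tested, and 0 passed, with a median log2 fold change of 0.14. At an unadjusted p under 0.05 there was 1 (9.09%, beside 15.4% of all genes tested). RAB1A, which is required for transport from the endoplasmic reticulum to the Golgi, was at 25.3, 26.3 and 20.8 CPM in the control libraries and at 33.3, 37.1 and 40.6 CPM under the other label. All 3 libraries labelled si-CPSF3 were above the controls, and the log2 fold change of 0.61 (SE 0.17, 95% interval 0.24 to 0.99) missed the threshold (edgeR adjusted p = 0.0817). With 1 library left out it ranged from 0.54 to 0.71. RAB1B, its near relative with the same role, was at 73.6, 63.6 and 67.9 CPM and at 88.3, 74.3 and 81.9 CPM. These groups did not overlap by a narrow margin, and the difference was 0.25 (SE 0.15, adjusted p = 0.454). RAB2A, which acts in traffic at the Golgi, gave -0.23 (SE 0.19), with control replicate 2 at 55.0 CPM and the other 5 libraries at 33.6 to 38.6 CPM. RAB33B, a Golgi RAB that binds the autophagy factor ATG16L1, was at 55.0 ± 14.4 and 60.8 ± 7.25 CPM (SD, n = 3), a difference of 0.14. RAB34, known for roles at the Golgi and in primary cilium formation, varied little: 35.5 to 37.7 CPM in the controls and 39.7 to 41.0 CPM in the others, without overlap and with a log2 fold change of 0.15 (edgeR adjusted p = 0.716). The remaining 6 tested genes (RAB6A, RAB6B, RAB2B, RAB18, RAB36 and RAB43) lay between -0.14 and 0.40.

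The exocytic RAB genes serve delivery from the Golgi to the cell surface and regulated secretion. Of 11 such genes 7 were tested, and 0 passed, with a median of 0.14. Only 1 had an unadjusted p under 0.05 (14.3%, beside 15.4% of all genes tested). RAB13, which acts in transport to cell junctions, was at 65.3, 53.4 and 56.7 CPM in the control libraries and at 68.7, 75.9 and 85.3 CPM in the others. The groups did not overlap, and the log2 fold change was 0.39 (SE 0.15, 95% interval 0.06 to 0.72, edgeR adjusted p = 0.228). RAB3B, of the regulated secretion subfamily, was at 45.6 ± 3.75 and 44.1 ± 4.79 CPM (SD, n = 3), and its difference of -0.05 had an interval of -0.39 to 0.29. RAB27A, which docks exosomes and lysosome-related organelles at the plasma membrane, gave 0.18, with replicate 1 of the libraries labelled si-CPSF3 at 38.4 CPM and the other 5 libraries at 25.2 to 29.6 CPM. RAB10, which carries the glucose transporter GLUT4 in fat cells, gave -0.18 and ranged from 9.63 to 17.6 CPM in the controls alone. RAB8A and RAB8B, which act in surface delivery and cilia, were at -0.17 and 0.14, while RAB3D, at 2.08 to 2.86 CPM in the controls and 3.22 to 3.86 CPM in the others, gave 0.56 without overlap (adjusted p = 0.579).

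The early and recycling endosome genes were the best represented, with 12 of 15 tested. None passed with edgeR, DESeq2 or limma-voom, and the median log2 fold change was 0.19. An unadjusted p under 0.05 was found for 2 (16.7%, near the 15.4% of all genes tested). RAB22A, which acts in recycling from early endosomes, was at 7.23, 9.17 and 11.2 CPM in the control libraries and at 15.3, 13.5 and 15 CPM in the others. The groups did not overlap, and the log2 fold change was 0.67 (SE 0.24, adjusted p = 0.182). On the log2(FPKM + 1) scale, where its groups overlapped, the difference was 0.25. RAB31, its closest relative in the family and the RAB gene with the most reads, went the other way in its mean: 109, 94.8 and 98.6 CPM in the controls against 84.6, 85.7 and 98.2 CPM. Its groups overlapped, and the difference was -0.17 (SE 0.14, adjusted p = 0.636). RAB11A and RAB11B, the RAB genes of the recycling endosome, gave 0.06 and 0.29. The RAB5 genes of the early endosome were unequal in depth: RAB5B had 482 counts over the 6 libraries, RAB5A 143 and RAB5C 43, too few for a test. RAB5B was at -0.06 and RAB5A at 0.24. RAB21 (-0.09), RAB15 (0.22), RAB14 (0.16) and RAB35 (0.53), all of endosomes, had overlapping groups.

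The RAB4 pair, which drives rapid return of receptors to the surface, had its members on opposite sides of 0. RAB4B was at 2.49, 7.50 and 7.03 CPM in the control libraries and at 16.9, 7.71 and 9.75 CPM in the others, a log2 fold change of 1.0 (SE 0.39, 95% interval 0.18 to 1.82, edgeR adjusted p = 0.217). The second library labelled si-CPSF3 lay just above the highest control, and control replicate 1 was far below the other controls. Without a filter on low counts RAB4B passed (adjusted p = 0.0452), and with 1 library left out its log2 fold change ranged from 0.64 to 1.28. On the FPKM scale its groups overlapped, as the control range of 2.40 to 8.74 took in the second library labelled si-CPSF3 at 7.27. RAB4A was at 12.7, 11.3 and 13.3 CPM against 8.32, 9.81 and 8.39 CPM. It was the tested RAB gene with the lowest log2 fold change, -0.48 (SE 0.24, 95% interval -0.99 to 0.02, adjusted p = 0.355), and the groups did not overlap. The count of RAB4B is not free of its neighbour: MIA-RAB4B, a readthrough gene on the same strand, shares 1010 exon bases with it and had 20, 16 and 8 counts in the controls and 5, 21 and 48 in the others. In replicate 1 of the libraries labelled si-CPSF3, RAB4B had its highest count, 63, and MIA-RAB4B its lowest. RAB4B also shares 1076 exon bases with RAB4B-EGLN2, and RAB4A shares 648 with SPHAR, both on the same strand. How the counting divided such reads was not tested.

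The shares of reads within pairs of close relatives give a measure that scaling does not touch. There were 9 subfamilies with 2 tested members. RAB4B took 16.4%, 40.0% and 34.6% of the RAB4 reads in the controls, against 67.0%, 44.0% and 53.8% under the other label. By reads, not corrected for length, RAB4B thus held the smaller part in every control library and the larger in 2 of the 3 others. In FPKM it was below RAB4A in control replicate 1 (2.40 against 4.42). It was already above RAB4A in control replicates 2 (7.69 against 6.37) and 3 (8.74 against 3.99). RAB40C took 48.8% ± 8.59 of the reads of RAB40B and RAB40C in the controls and 67.2% ± 8.72 in the others (SD, n = 3), and RAB3D 4.99% ± 0.605 and 7.50% ± 1.40 of those of RAB3B and RAB3D. These 3 shares did not overlap between groups, while the shares in the RAB1, RAB2, RAB5, RAB6, RAB8 and RAB11 pairs did. How often pairs of other genes lie apart was not computed, so the count of pairs has no background beside it. RAB4A, RAB4B and RAB3D also lay apart in CPM, so the RAB4 and RAB3 shares are not separate results. The two-sided exact permutation p was 0.1 for each of the 3 shares, the smallest value that 3 against 3 libraries allow. Adjusted over the 9 pairs it was 0.3, so no share could pass. For RAB1B the shares were 73.9% ± 2.92 and 68.7% ± 3.39 (exact p = 0.2), and for RAB11B 51.8% ± 4.86 and 56.2% ± 2.35 (exact p = 0.2).

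**Figure D3:**
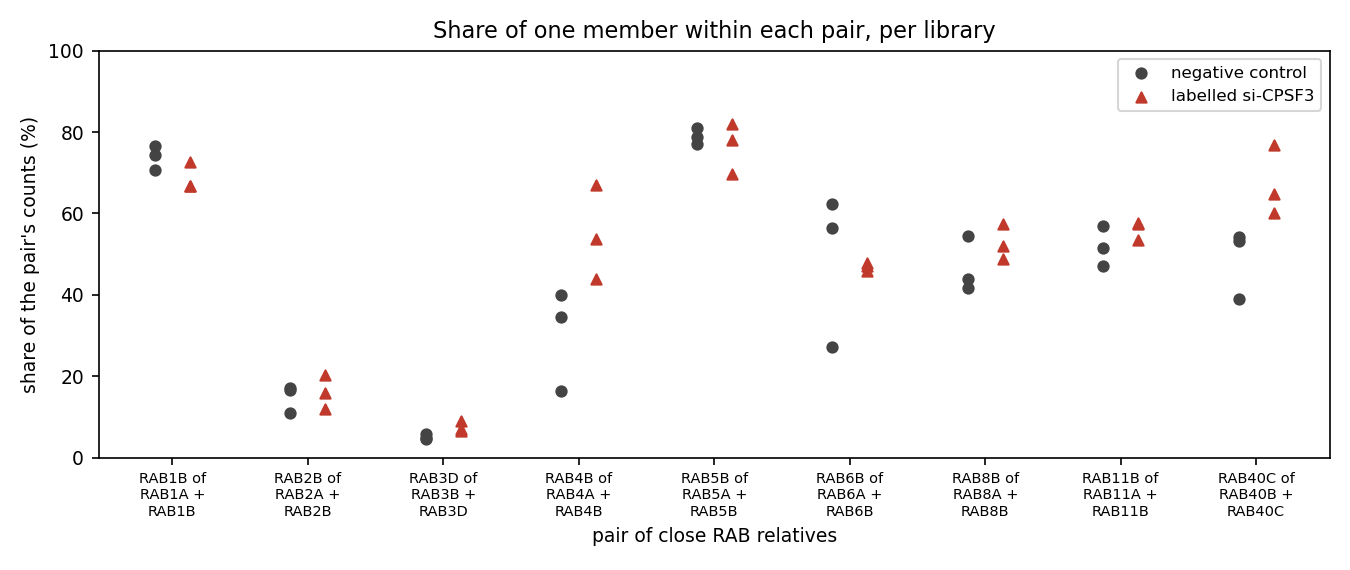
Share of reads (percent, not corrected for gene length) that 1 member takes of the sum of a pair of close RAB relatives, per library, for control (circles) and si-CPSF3 labelled libraries (triangles). The groups lie apart for RAB4B, RAB3D and RAB40C and overlap in the other 6 pairs.

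The late endosome and lysosome group held RAB39B and 5 other tested genes of 11 members. RAB39B was placed there by the role list used, and where its product acts was not tested. RAB7A, which controls fusion of late endosomes with lysosomes, was at 53.1, 49.8 and 46.3 CPM in the control libraries and at 46.5, 43.9 and 59.4 CPM in the others. The groups overlapped, and the log2 fold change was 0.01 with an interval of -0.34 to 0.35. RAB29, an activator of the Parkinson's disease kinase LRRK2, was at 27.1 ± 2.76 and 32.1 ± 5.45 CPM (SD, n = 3; log2 fold change 0.25, edgeR adjusted p = 0.571). RAB32, which acts in the formation of melanosomes and other lysosome-related organelles, was at 19.9, 20.2 and 12 CPM against 10.5, 14.5 and 15.2 CPM, a difference of -0.38 (SE 0.25, adjusted p = 0.525). Control replicate 3 lay with the other group, and with 1 library left out the difference ranged from -0.55, without that control, to -0.21, without replicate 1 of the libraries labelled si-CPSF3. RAB24, tied to autophagy, gave 0.10 and RAB9A, which returns receptors from late endosomes to the Golgi, 0.48 from 2.48 CPM. The median of the 6 genes was 0.17.

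Of the 7 genes placed with cilia and other roles, 3 were tested. RAB40C and RAB40B, which carry a SOCS box that binds a ubiquitin ligase, gave 0.69 (SE 0.41) and -0.42 (SE 0.48), with overlapping groups. Without replicate 2 of the libraries labelled si-CPSF3 these were 0.26 and -1.01, and over all fits with 1 library left out RAB40C reached 0.96 and RAB40B -0.09. RAB28, known from photoreceptor cilia, was at 1.13, 3.33 and 0 CPM in the controls and at 2.69, 2.57 and 3.63 CPM in the others (log2 fold change 0.92, SE 0.69, edgeR adjusted p = 0.579). The SD of its control libraries, 1.70 CPM, exceeded the difference between the group means of 1.49 and 2.96 CPM. Its log2 fold change was 2.26 without control replicate 2, 0.41 without control replicate 3 and 1.73 with limma-voom.

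**Figure D4:**
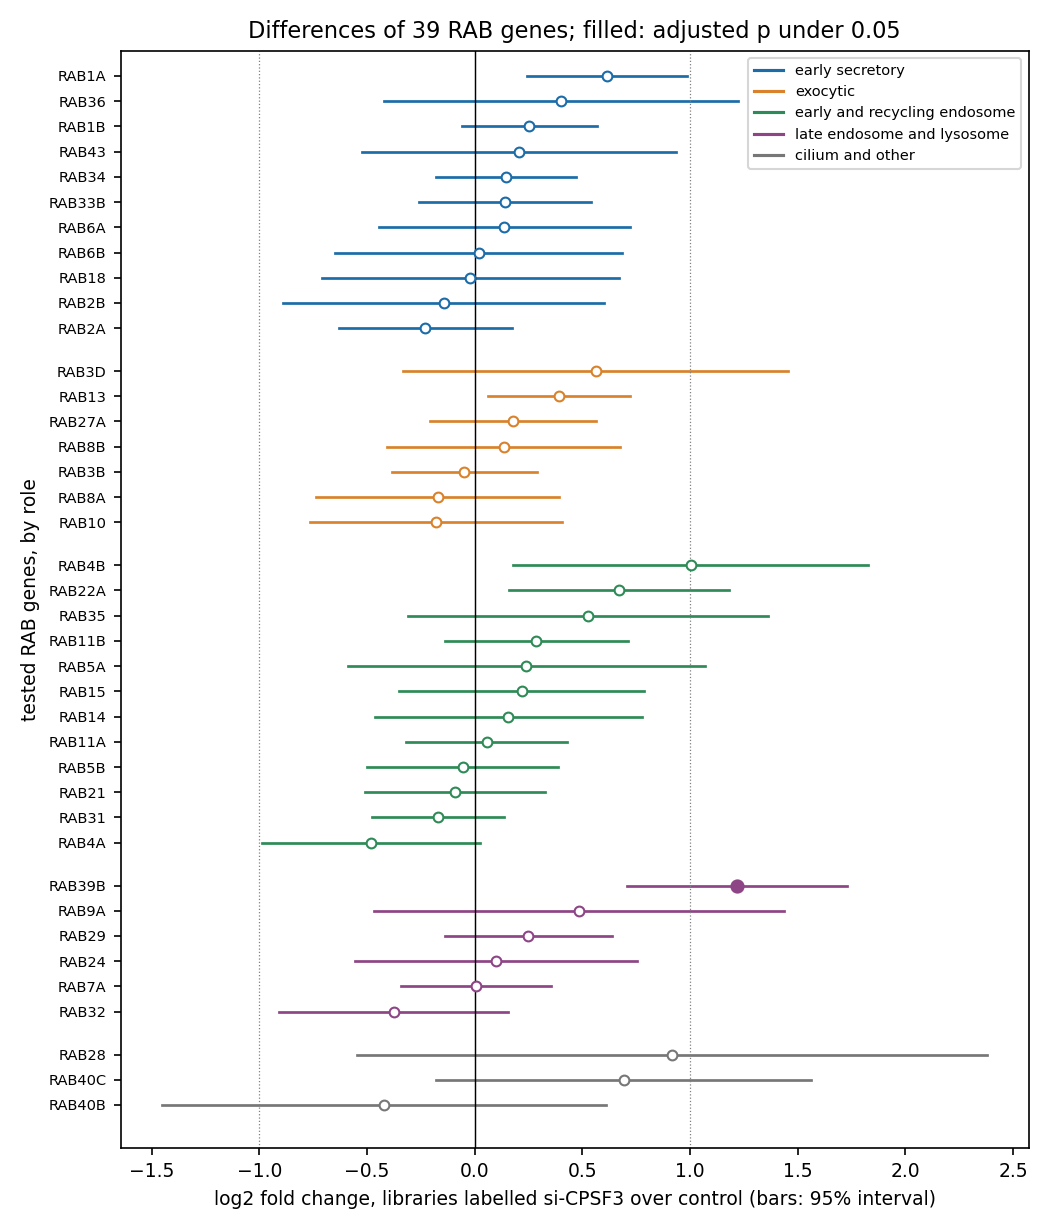
Log2 fold change of the 39 tested RAB genes with its 95% interval, by role; dotted lines mark a 2-fold change and the filled point an adjusted p under 0.05. RAB39B is the filled point, and the intervals of 28 genes lie wholly between the dotted lines. Over all 11069 genes tested, not drawn here, 6427 had such intervals.

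For 28 of the 39 tested members the 95% interval of the edgeR fit lay within 1 log2 unit of 0, that is, below 2-fold in either direction. The same held for 6427 of all 11069 genes tested, so such an interval is not particular to the RAB genes. The other 11 were RAB39B, RAB4B, RAB22A, RAB28, RAB35, RAB36, RAB3D, RAB40B, RAB40C, RAB5A and RAB9A, most of them under 5 CPM. These intervals depend on the scaling and on variation among libraries that may be technical. Those of RAB4A (down to -0.99) and RAB1A (up to 0.99) came close to the limit. With library totals RAB32, one of the 28, was at -0.48 with a larger SE of 0.30.

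The other 21 members had too few counts. RAB17, RAB3A and RAB3C had 0 counts in all 6 libraries, where 3 counts over the libraries would be 0.117 CPM. Another 14 had 1 to 10 counts in total: RAB19, RAB20, RAB23, RAB26, RAB27B, RAB30, RAB38, RAB39A, RAB41, RAB42, RAB44, RAB6C, RAB6D and RAB9B. The remaining 4 were RAB12 with 33 counts, RAB33A with 24, RAB40A with 23 and RAB5C with 43. RAB3A and RAB3C, which act in release from nerve endings, and RAB26 and RAB27B of secretory granules were thus at or near 0. RAB3B and RAB3D of the RAB3 subfamily and RAB27A of the RAB27 subfamily were measured in every library.

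Levels between genes can be set side by side only per length, for which the deposited FPKM values served. These were not the counts over 1 fixed length per gene. RAB33B had 239 and 335 counts in control replicates 1 and 2, but 3.38 and 9.48 FPKM. An overlap or a test on the FPKM scale is therefore not a plain rescaling of the counts, and what made the FPKM per count vary was not tested. RAB13 was the highest in the control libraries at 68.3 ± 6.38 FPKM, followed by RAB1B at 42.6 ± 5.72 and RAB34 at 31.1 ± 4.88 (SD, n = 3). RAB7A (27.8 ± 9.21) and RAB31 (27.6 ± 1.68) came next and did not differ from RAB34 beyond their spread. RAB39B was at 3.07 ± 0.784 FPKM in the controls and 6.20 ± 1.60 in the libraries labelled si-CPSF3, below RAB7A and RAB29 of its role group on both sides. Of the 9 genes whose groups lay apart in CPM, RAB39B, RAB3D and RAB4A also lay apart in FPKM. The FPKM groups of RAB1A, RAB1B, RAB4B, RAB13, RAB22A and RAB34 overlapped: RAB1A reached 17.0 in the controls and went down to 16.9 in the others, RAB22A reached 1.70 and went down to 1.58, and RAB13 reached 73.9 and went down to 62.6.

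Summed over all 60 genes, RAB transcripts made up 847, 849 and 768 CPM in the control libraries and 874, 874 and 938 CPM in the others when scaled by composition. The groups did not overlap on that scale. As a plain share of the counts they overlapped, at 9.04, 9.34 and 7.09 per 10000 counts and 7.63, 8.54 and 9.79 per 10000. Control replicate 3 and replicate 1 of the libraries labelled si-CPSF3 had the lowest plain shares of RAB counts and the highest shares of ribosomal protein counts, 52.6% and 52.7%. Per 10000 counts outside the ribosomal protein genes the RAB counts were 17.5, 17.6 and 15 against 16.1, 17.0 and 19.8, and the groups overlapped there as well. The early secretory genes summed to 274 ± 30.6 and 305 ± 5.10 CPM, the early and recycling endosome genes to 253 ± 9.19 and 259 ± 25.6 CPM, the exocytic genes to 169 ± 11.3 and 189 ± 4.25 CPM, and the late endosome and lysosome genes to 115 ± 8.50 and 130 ± 7.53 CPM (SD, n = 3). As plain shares, the early and recycling endosome genes had the opposite order, at 2.61 ± 0.303 and 2.51 ± 0.443 per 10000 counts, while the early secretory (2.84 and 2.95), exocytic (1.74 and 1.82) and late endosome and lysosome genes (1.19 and 1.26) kept theirs. All of these differences in plain share were smaller than the SDs of the groups.

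The proteins that run the RAB cycle were read from lists of 147 genes in all, of which 117 were tested. None passed with edgeR, DESeq2 or limma-voom, and 17 had an unadjusted p under 0.05, 9 higher and 8 lower (14.5%, beside 15.4% of all genes tested). In the list of prenylation and membrane cycle genes, 0 of 7 passed and the median log2 fold change was 0.31. GDI2, a GDP dissociation inhibitor, was at 35.5 ± 6.30 and 38.8 ± 6.46 CPM (SD, n = 3), a log2 fold change of 0.13 (edgeR adjusted p = 0.804). Of 44 tested exchange factors 0 passed, with a median of 0.08. They were not uniform, as their log2 fold changes ran from -1.75 to 0.79. At an unadjusted p under 0.05 there were 9, 6 higher and 3 lower (20.5%, beside 15.4% of all genes tested). The groups did not overlap for 13, 8 higher and 5 lower (29.5%, beside 21.2% of all genes tested). The 2 with the most reads were DENND1B, for RAB35, at 0.27 (adjusted p = 0.537), and TRAPPC5, a subunit of the TRAPP complexes that activate RAB1, at -0.01 (adjusted p = 0.991). DENND1B took 3714 ± 364 and 4491 ± 865 CPM (SD, n = 3), and what gave it so many reads was not tested. Of 25 tested GTPase-activating proteins 0 passed, with a median of -0.11, TBC1D22A at -0.10 and SGSM2, which acts on RAB32 and RAB38, at -0.16. Of 40 tested effectors 0 passed, with a median of 0.07. PLIN3, which binds RAB9, was at -0.29 (adjusted p = 0.426), and GOLGA2, a Golgi tether that binds RAB1, at -0.29 (adjusted p = 0.426). LRRK1, a kinase of RAB7A, was the tested gene of the 4 kinases and phosphatases listed, at -0.33 (adjusted p = 0.625).

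**Figure D5:**
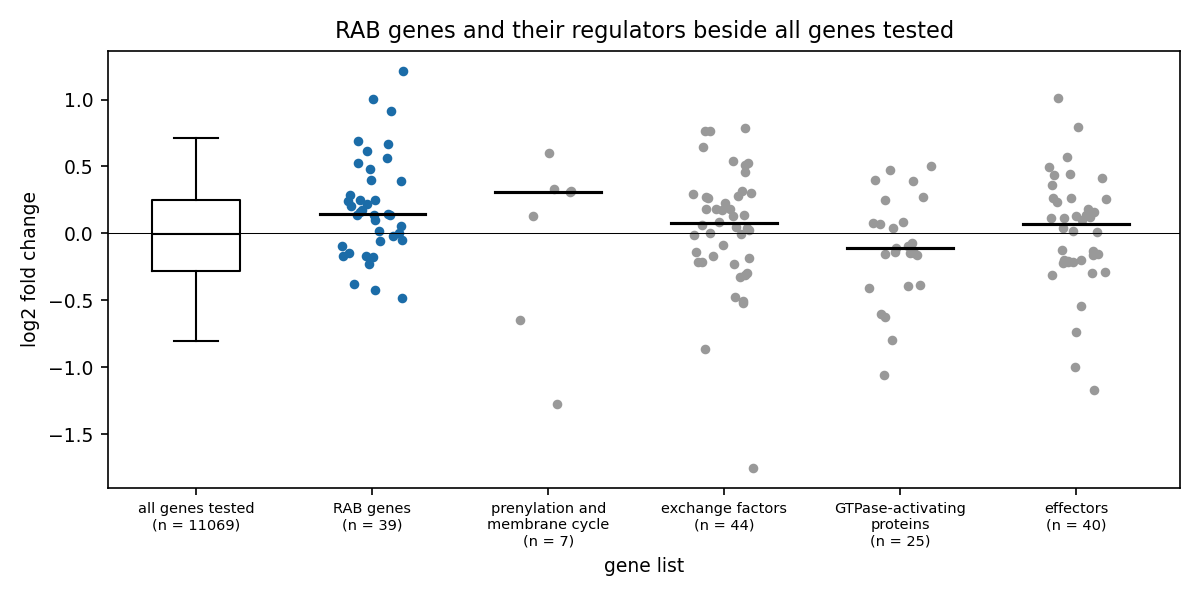
Log2 fold change of the 39 tested RAB genes and of the tested members of 4 lists of RAB regulators (points, with the median as a line) beside all 11069 genes tested (box from the 25th to the 75th percentile, whiskers at the 5th and 95th). The medians are 0.15 for the RAB genes, 0.31, 0.08, -0.11 and 0.07 for the lists and -0.01 for all genes.

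Of the 39 tested members, 20 share exon bases with another gene in GENCODE 29, and for 11 a partner was in the table. RAB1A shares 757 bases with CEP68 on the opposite strand, whose log2 fold change was -0.09 (edgeR adjusted p = 0.922). RAB24 shares 926 bases with MXD3 on the same strand, at -0.68 (adjusted p = 0.273). RAB13 shares 682 bases with AL358472.6, also on the same strand. The sources used here do not give the strand setting of the counting, so reads of partners on the opposite strand cannot be told apart. Strand would not separate the reads of partners on the same strand, or of near-identical relatives such as RAB6A, RAB6C and RAB6D.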

How the data were processed

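RNA sequencing libraries of UM-UC-3 cells were grouped by their titles. The authors deposited whole-number counts per gene and FPKM values, 1 column per library. The deposited FPKM divides by transcript length and depth as the authors computed them, and the FPKM per count of a gene varied between libraries. The genome build named in the submitters' processing notes is hg38. The sources used here do not give the aligner, counter, strand setting or annotation. The table had 25479 rows for 23382 names; the row with the highest mean count stood for a name, which affected RAB38 and RAB6C.

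Counts were tested with edgeR 4.0.16 in R 4.3.3 (glmQLFTest, TMM factors, default filter by group, Benjamini-Hochberg over 11069 genes, two-sided at 0.05). SE is the absolute log2 fold change over the root of F. CPM uses TMM-adjusted library sizes; ± is the SD of 3 libraries. The test was checked on simulated counts, with 100 genes changed 2-fold and 100 changed 4-fold, all at 5 CPM or more. Each simulated gene had the spread of the fitted trend for its level, without spread of its own. As many genes were raised as lowered, and no difference in composition was added. With these settings the test recovered 66% and 96% of the changed genes, and 6.90% of its calls were false. Genes under 5 CPM were not covered. A gene short of the threshold may therefore still differ by 2-fold. Coding sequence ends came from GENCODE 29 and gene positions from RefSeq (GRCh38.p14). Replicates differed beyond counting error (chi-square per degree of freedom 6.54 to 16.3), so each library counted once. Floors and count-based limits cover counting error only.

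The members, role lists and regulator lists were chosen with earlier results of these data known. Named were all members past adjusted or unadjusted p of 0.05, and per role the 3 with the highest mean CPM and the 2 with the largest change at 5 CPM or more; of each regulator list, members past the threshold or else the 2 with the highest level. A regulator that this rule names is not reported here. RAB4A, RAB34, RAB3D and the other members in ranges were added after their values were seen. Alternatives were DESeq2 1.42.0 and its size factors, library totals, no filter, a stricter filter (20 counts in 3 libraries), limma-voom (limma 3.58.1), a replicate block, each library left out, summed rows, and limma-trend on FPKM with a pseudocount of 1 or 0.1 before the log2.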

Additional observations from a re-analysis of the deposited data

How the results depend on the processing

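RAB39B was higher in all 16 alternatives and passed in 11 of them. The exceptions were 3 fits with 1 library left out and the FPKM scale, where it was at 0.82 with a pseudocount of 1 and 0.99 with 0.1, so the number of changed RAB genes was 0 on both FPKM scales and 0 to 1 with 1 library left out. The test without a filter called 2 RAB genes, both higher (RAB4B added), and 1 regulator, INPP5B. CPSF3 stayed short of the threshold throughout. Against 247 changed genes (80 higher, 167 lower), there were 547 without a filter (232 and 315), 147 with the replicate block (41 and 106), 41 on log2(FPKM + 1) (11 and 30), 31 on log2(FPKM + 0.1) (12 and 19), and 85 to 199 with 1 library left out (30 to 69 higher, 55 to 130 lower); library totals gave 36 higher. The replicate numbers were not used as a pairing in the main fit. Deviations of same-numbered libraries correlated at 0.106, 0.109 and -0.065, and those of differently numbered libraries at -0.193 to 0.090. These values do not settle whether the libraries were paired. With the block RAB39B was at 1.21 (edgeR adjusted p = 0.0351). Among the other named members, signs turned for 6 genes near 0, none of them called. RAB7A was at -0.085 with library totals, -0.0041 with limma-voom, -0.0046 with the block, -0.084 and -0.086 on the FPKM scales and -0.14 to 0.11 with 1 library left out. RAB11A was at -0.042 with library totals, -0.12 and -0.13 on the FPKM scales and -0.00087 to 0.15 with 1 left out. In such fits RAB10 ranged from -0.35 to 0.045, RAB2A from -0.35 to 0.0031, RAB33B from -0.0061 to 0.35 and RAB3B from -0.12 to 0.043. Those of RAB11B (0.12 to 0.43), RAB27A (0.05 to 0.28), RAB29 (0.15 to 0.39) and RAB31 (-0.24 to -0.11) kept their sign. The cause of these changes was not tested. Depth limits the genes under 5 CPM.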
